A study of Mus musculus with 12 samples.

Results

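The genes of the 26S proteasome were followed in primary fibroblasts from mouse embryos, which are cultured cells that have not become an established line. Members were the probe sets whose annotation gave exactly 1 gene symbol beginning with Psma, Psmb, Psmc or Psmd and a digit. Where a gene had several, the brightest by its mean of 12 arrays was taken. This gave 39 genes of the 12393 genes on the arrays: 15 genes of the core particle, 20 of the regulatory particle, the 3 immunoproteasome subunits Psmb8, Psmb9 and Psmb10, and Psmc3ip. Psmc3ip shares the symbol pattern but encodes a cofactor of meiotic recombination, so it was counted among the 39 and left out of the particle means. The 20 regulatory genes were taken by symbol. They include Psmd5, Psmd9 and Psmd10, chaperones that help assemble the base of the particle, in every count, median and mean given for it.

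The proteasome degrades proteins that carry chains of ubiquitin. Its core particle is a barrel of alpha rings (Psma) around beta rings (Psmb), and 3 beta subunits, Psmb5, Psmb6 and Psmb7, carry the chymotrypsin-like, caspase-like and trypsin-like cutting activities. Interferon signalling replaces them with Psmb8, Psmb9 and Psmb10, which favours peptides for presentation on MHC class I molecules. The regulatory particle binds ubiquitin, unfolds the substrate with a ring of ATPases (Psmc) and feeds it into the core, with most of its other subunits named Psmd. When proteasome activity falls short, the transcription factor Nfe2l1, with a small Maf partner, is known to raise most of these genes together through antioxidant response elements.

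Upstream sequences are shown for 3 genes that the results turn on: the constitutive catalytic subunits Psmb5 and Psmb6, and Psmd5, the gene that varied most between arrays. Each is the 250 bases before the RefSeq transcription start (assembly GRCm38.p6), written 5′ to 3′ along the gene's strand. Capitals mark the antioxidant response core TGACNNNGC in Psmb5 and Psmb6, and the pattern was not found in the Psmd5 stretch. The Psmb5 stretch lies at chr14:54617996-54618245 on the minus strand, Psmb6 at chr11:70525107-70525356 on the plus strand and Psmd5 at chr2:34870963-34871212 on the minus strand.
Psmb5: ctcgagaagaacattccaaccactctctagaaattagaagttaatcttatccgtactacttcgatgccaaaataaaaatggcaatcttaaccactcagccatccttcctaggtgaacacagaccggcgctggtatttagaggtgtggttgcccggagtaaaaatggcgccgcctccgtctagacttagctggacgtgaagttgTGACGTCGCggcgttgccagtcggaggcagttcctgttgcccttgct
Psmb6: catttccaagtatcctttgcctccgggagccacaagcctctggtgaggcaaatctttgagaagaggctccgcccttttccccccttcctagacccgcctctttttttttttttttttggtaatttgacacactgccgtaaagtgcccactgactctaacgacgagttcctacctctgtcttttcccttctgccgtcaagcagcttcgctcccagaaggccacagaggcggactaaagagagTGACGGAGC
Psmd5: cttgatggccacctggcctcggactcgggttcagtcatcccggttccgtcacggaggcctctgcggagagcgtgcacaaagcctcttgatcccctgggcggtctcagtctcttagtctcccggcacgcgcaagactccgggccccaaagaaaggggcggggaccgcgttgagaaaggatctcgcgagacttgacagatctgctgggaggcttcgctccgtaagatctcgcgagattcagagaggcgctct

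Promoters from 250 bases before to 50 after the start were matched for 32 of the 39 genes, with 34 promoters, and both strands were searched. TGACNNNGC stood in the promoters of 5 genes (15.6%), Psmb5, Psmb6, Psmc6, Psmd9 and Psmd12, against 12.4% of 32851 promoters in the table. The core of the interferon response element (GAAA, any 2 bases, GAAA) was found for 3 genes, Psmb3, Psmd4 and Psmd9 (9.4%, against 3.4%), and CCAAT for 13 (40.6%, against 37.4%). The member shares count genes with a match in any of their promoters, whereas the background shares count promoters. These are matches of letters, not measured binding.

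The arrays came from 4 groups of 3: wild-type cells with vehicle, wild-type cells with 1 µM rotenone, HtrA2 knockout cells with vehicle and HtrA2 knockout cells with 1 µM rotenone. HtrA2 (also called Omi) is a protease found between the mitochondrial membranes, and rotenone inhibits respiratory complex I. Exposure lasted 4 h, and the cells of every group were at passage 4 and grown in DMEM with serum. The knockout was present in the whole animal the cells came from. The sources used here do not say which exons were deleted, how many embryos were used or whether cells were pooled. The stated aim was to find genes that respond differently to rotenone in knockout and wild-type cells.

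Values were RMA log2 levels, 1 per probe set and array, and medians of the 12 arrays lay between 7.53 and 7.58. Htra2, the targeted gene, was lower in knockout by 1.39 with vehicle (log2 difference -1.39, SE 0.13, adjusted p = 0.00320) and by 1.32 with rotenone (-1.32, SE 0.13, adjusted p = 0.00577; limma) on its brighter probe set, with 8.83 to 9.32 on wild-type and 7.57 to 7.87 on knockout arrays. A dimmer Htra2 probe set had estimates of the opposite sign that did not pass, 0.40 with vehicle (SE 0.17, adjusted p = 1.00) and 0.23 with rotenone (SE 0.17, adjusted p = 0.838; limma); whether either probe set lies in the deleted part is not known here. A label field names the 3 wild-type rotenone arrays as knockout, whereas titles and descriptions call them wild type, and the brighter Htra2 probe set on them was at the wild-type level. The first principal component, with 44.7% of the variance, separated the 4 arrays with replicate number 3 from the other 8. All 10 fibroblast markers measured lay between the 61.9th and the 99.9th percentile of mean level. Nothing in the labels says that replicates were separate cultures or embryos, so p-values measure the spread between these samples only, which may be technical.

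Most proteasome genes gave bright signals. Of the 39, 32 lay above the 80th percentile of mean level over all probe sets. The alpha ring genes Psma1 to Psma7 lay between the 80.7th and 97.9th percentiles, the catalytic subunits Psmb5, Psmb6 and Psmb7 between the 95.2nd and 98.4th, the 6 ATPases between the 85.0th and 96.3rd, and the 8 lid genes between the 85.5th and 98.3rd. The immunoproteasome subunits were dimmer, with Psmb9 at the 36.7th, Psmb8 at the 46.0th and Psmb10 at the 63.0th percentile. Psma8, an alpha subunit of germ cells, was the dimmest member, at the 14.1st percentile. Probe sets of different genes bind with different strength, so these ranks give brightness and not the amounts of subunits relative to each other.

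Their levels varied little. The median SD within a group of 3 arrays was 0.143 for the 39 genes, against 0.154 for all 22626 probe sets and 0.177 for those above the median level. Over the 12 arrays the median range, highest minus lowest log2 level, was 0.43 for the members and 0.52 for all probe sets. Psmd5, a chaperone that helps assemble the base of the regulatory particle, had the widest range among the members, 1.10.

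**Figure D1:**
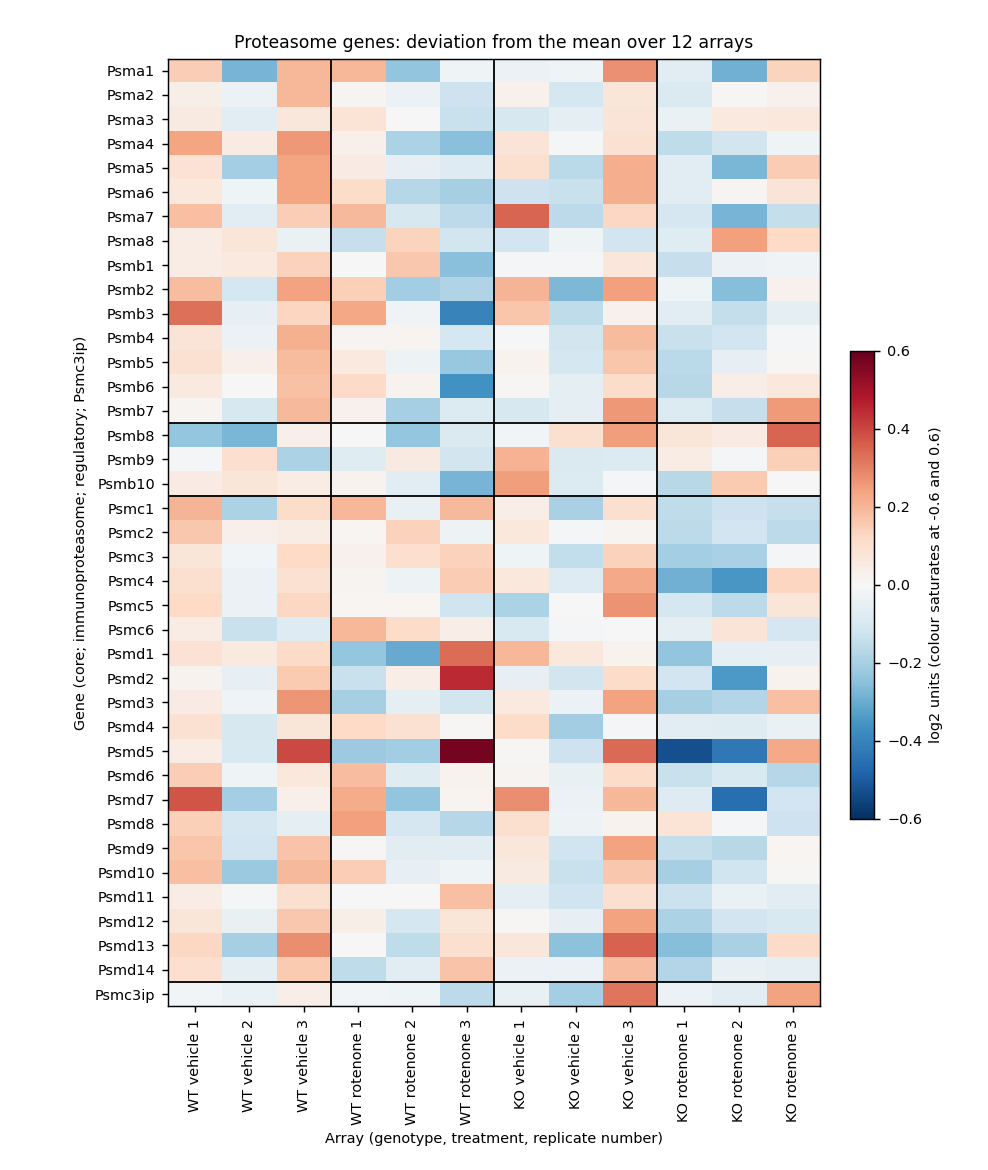
Each cell of the heat map is the log2 level of 1 proteasome gene (rows, in the order core, immunoproteasome, regulatory, Psmc3ip) on 1 array (columns), minus that gene's mean over the 12 arrays. Core genes are mostly blue on the wild-type rotenone array 3, on which regulatory genes such as Psmd1, Psmd2 and Psmd5 are red, and regulatory genes are mostly blue on the knockout rotenone arrays 1 and 2.

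With rotenone, averaged over both genotypes, most proteasome genes had slightly lower estimates, and none passed the test. Of the 39 genes, 33 had a negative log2 difference, with a median of -0.10 and a range from -0.23 to 0.09, whereas 41.4% of all probe sets were negative and their median was 0.02. None of the 39 reached an adjusted p under 0.05 in limma, where 0.217% of all probe sets did. At an unadjusted p under 0.05, 1 gene, Psma4, was lower, 2.56% of the members against 7.90% of all probe sets. The 95% intervals of the members together spanned -0.57 to 0.24. In RNA from whole cultures, fewer cells of a type and less RNA per cell cannot be told apart.

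The same comparison was repeated with the replicate number as a block, since same-numbered arrays deviated together. Again none of the 39 passed, against 2.46% of all probe sets. When the arrays numbered 3 were left out as well, 2 regulatory genes passed as lower, the scaffold Psmd1 at -0.31 (adjusted p = 0.0353) and the chaperone Psmd5 at -0.30 (adjusted p = 0.0380; limma). These were 5.13% of the members, against 4.66% of all probe sets in that fit. At an unadjusted p under 0.05, 6 genes were lower and none higher (Psma4, Psma7, Psmb2, Psmd3, Psmd5 and Psmd7), 15.4% against 15.0% of all probe sets. Thus the share of members at this looser threshold was close to the background, while the direction was the same in each of the 6. Across the 6 same-numbered pairs of rotenone and vehicle arrays, 4 genes (Psma4, Psmd3, Psmd7 and Psmd12) were lower in every pair, 10.3% of the members against 4.85% of all probe sets. No member was higher in every pair, against 6.51% of all probe sets.

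Within the core particle, 13 of 15 genes had lower estimates with rotenone, with a median of -0.10. Without the arrays numbered 3 and with the block the median was -0.04, with 12 of 15 lower. By same-numbered pair, 9, 6 and 15 of the 15 core genes were lower in wild type, and 11, 7 and 14 in knockout. In the alpha ring, which gates the entry of substrates, Psma4 had the lowest estimate. Its levels were 11.67, 11.48 and 11.69 with vehicle and 11.46, 11.24 and 11.18 with rotenone in wild type, and 11.51, 11.42 and 11.52 with vehicle and 11.28, 11.33 and 11.41 with rotenone in knockout. Rotenone arrays lay below vehicle arrays in both genotypes, without overlap within a genotype, though the gap was narrow in each. The mean difference was -0.23 (1.17-fold lower, SE 0.07, adjusted p = 0.342, and 0.0937 with the block; limma). Psma8 had the highest estimate of the core, 0.06 (SE 0.07), on a dim probe set.

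The catalytic subunits were close to each other in their estimates. Psmb5, the chymotrypsin-like subunit, had levels of 11.74, 11.68 and 11.83 with vehicle and 11.70, 11.61 and 11.42 with rotenone in wild type, and 11.66, 11.54 and 11.81 with vehicle and 11.48, 11.59 and 11.65 with rotenone in knockout. Vehicle and rotenone arrays overlapped in both genotypes, and the difference was -0.13 (95% interval -0.29 to 0.03). Psmb6, the caspase-like subunit, ran from 11.18 to 11.52 on 11 arrays and was lowest on wild-type rotenone array 3, at 10.98; its difference was -0.10 (-0.29 to 0.09). Psmb7, the trypsin-like subunit, was highest on arrays numbered 3 in 3 of the 4 groups, between 12.63 and 12.70, and on wild-type rotenone array 3 it was 12.36; its difference was -0.07 (-0.28 to 0.14). All 4 other beta ring genes, Psmb1 to Psmb4, also had lower estimates, between -0.17 and -0.10.

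**Figure D2:**
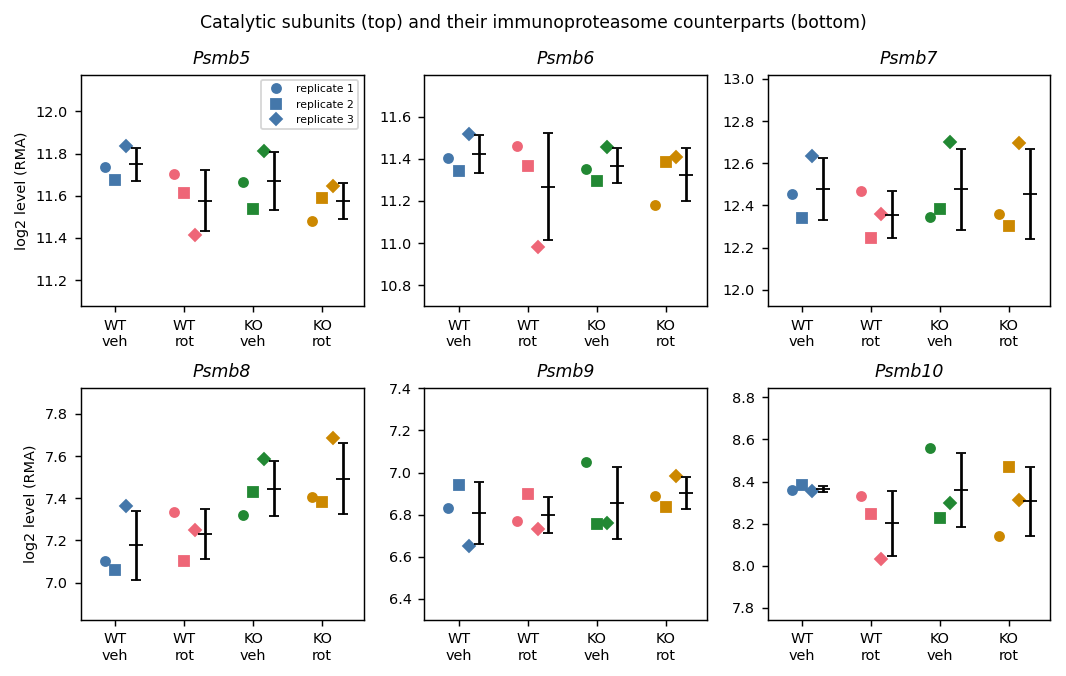
Log2 levels of the catalytic subunits Psmb5, Psmb6 and Psmb7 (top) and of their immunoproteasome counterparts Psmb8, Psmb9 and Psmb10 (bottom) on each array, with symbols for the replicate number and black bars for mean ± SD (n = 3); every panel spans the same log2 height from a different start. Psmb8 lies between 7.06 and 7.37 on the wild-type arrays and between 7.32 and 7.69 on the knockout arrays, and Psmb6 is lowest on wild-type rotenone array 3, at 10.98.

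In the regulatory particle, 18 of 20 genes had lower estimates with rotenone, also with a median of -0.10. Psmd7, a lid subunit that pairs with the deubiquitinase Psmd14, had the lowest. It measured 10.32, 9.74 and 9.97 with vehicle and 10.16, 9.70 and 9.96 with rotenone in wild type, and 10.22, 9.90 and 10.14 with vehicle and 9.86, 9.49 and 9.83 with rotenone in knockout. The wild-type groups overlapped almost completely, whereas each knockout rotenone array lay below every knockout vehicle array. Averaged over genotypes the difference was -0.22 (SE 0.12, adjusted p = 0.724, and 0.0990 with the block; limma). All 8 lid genes had lower estimates, from -0.22 to -0.02, as did 5 of 6 ATPases and the 3 assembly chaperones Psmd5, Psmd9 and Psmd10.

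The ATPase Psmc6 had the highest estimate in the particle, 0.09 (SE 0.06, adjusted p = 0.795; limma). Its levels were 11.38, 11.20 and 11.26 in wild-type vehicle and 11.53, 11.44 and 11.37 in wild-type rotenone, against 11.24, 11.32 and 11.34 in knockout vehicle and 11.28, 11.41 and 11.23 in knockout rotenone. The groups overlapped in both genotypes. The other Psmc6 probe sets gave -0.10 and -0.11, the opposite sign.

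Probe sets of the same gene did not always point the same way. For 17 of the 39 genes the arrays held 29 further probe sets, 12 of them below the 40th percentile of level. None of the 29 passed in a rotenone or genotype comparison, and none lay more than 0.5 from the brightest one. Of the 17 at or above the 40th percentile, 12 were lower with rotenone and 6 had the sign opposite to their gene's brightest probe set (Psma5, Psmb1, Psmc4, Psmc6, Psmd4 and Psmd9). Psmd7 was among the genes whose other probe sets differed in sign, 0.03 and 0.09 against -0.22, both dim, at the 30.9th and 19.3rd percentiles.

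Rotenone was then compared within each genotype, with 3 arrays a group; these comparisons share arrays with the mean effect and with the genotype comparisons below. In wild type, 32 of 39 genes had lower estimates (median -0.07, all probe sets 0.01), and in knockout also 32 of 39 (median -0.11, all probe sets 0.02). No member passed in either: 0.0133% of all probe sets did in wild type and 0.00884% in knockout, and 0.628% and 0.301% with the block (limma). At an unadjusted p under 0.05 there was 1 member lower in wild type, Psma4, against 4.36% of all probe sets, and 0 in knockout, against 3.66%. With the block these became 2 members in wild type (Psma4 and Psmd3, against 9.67%) and 5 in knockout (Psma7, Psmc4, Psmd5, Psmd7 and Psmd12, against 8.33%), all lower. In knockout a further bright probe set gave 0.02 for Psmc4, against -0.24 on its brightest, and one for Psma7 gave -0.20, against -0.28.

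The particles differed in how their estimates were spread over the genotypes. In wild type all 15 core genes and 14 of 20 regulatory genes had lower estimates, with medians of -0.11 and -0.03. In knockout it was 12 of 15 core genes and 19 of 20 regulatory genes, with medians of -0.10 and -0.14. These counts hold for the brightest probe set of each gene. Of the 17 further probe sets at or above the 40th percentile, 11 were lower in wild type and 9 in knockout. The sign was opposite to that of the gene's brightest probe set for 6 of the 17 in wild type and 10 in knockout. The lowest estimates in wild type were Psma4 at -0.32 (SE 0.10, adjusted p = 0.814, and 0.205 with the block; limma) in the core and Psmd3, a lid subunit, at -0.22 (SE 0.12) in the regulatory particle. The highest there was Psmc6, at 0.17 (SE 0.09), and no core gene had a positive estimate. In knockout the lowest were Psma7, an alpha subunit, at -0.28 (SE 0.14) and Psmd7 at -0.36 (SE 0.17, adjusted p = 1.00, and 0.148 with the block; limma), and the highest were Psma8 at 0.18 (SE 0.10) and Psmc6 at 0.01 (SE 0.09).

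Part of the wild-type pattern rested on 1 array. As means over genes of the deviation from each gene's 12-array mean, the core and regulatory particles stayed within 0.07 of each other on 11 arrays, with regulatory minus core between -0.07 and 0.02. On wild-type rotenone array 3 the core mean was -0.18 and the regulatory mean 0.10, a gap of 0.28. That array held the lowest of the 12 values for 8 of the 15 core genes, against at most 3 on any other array. Psmd2, a scaffold of the base that holds ubiquitin receptors, shows it: its levels in wild-type rotenone were 11.64, 11.81 and 12.22, against 11.73 to 11.93 in wild-type vehicle, so the third array alone lay above the vehicle range. Psmb3, a beta ring subunit, was at 10.53 there, against 10.79 to 11.27 on the other 11 arrays. By same-numbered pair, rotenone minus vehicle in wild type was negative for 9 of 15 core genes in pair 1, for 6 in pair 2 and for all 15 in pair 3. Without all the arrays numbered 3 and with the block, the core median in wild type was -0.01, with 10 of 15 genes lower; without wild-type rotenone array 3 alone it was -0.04, with 14 of 15 lower.

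**Figure D3:**
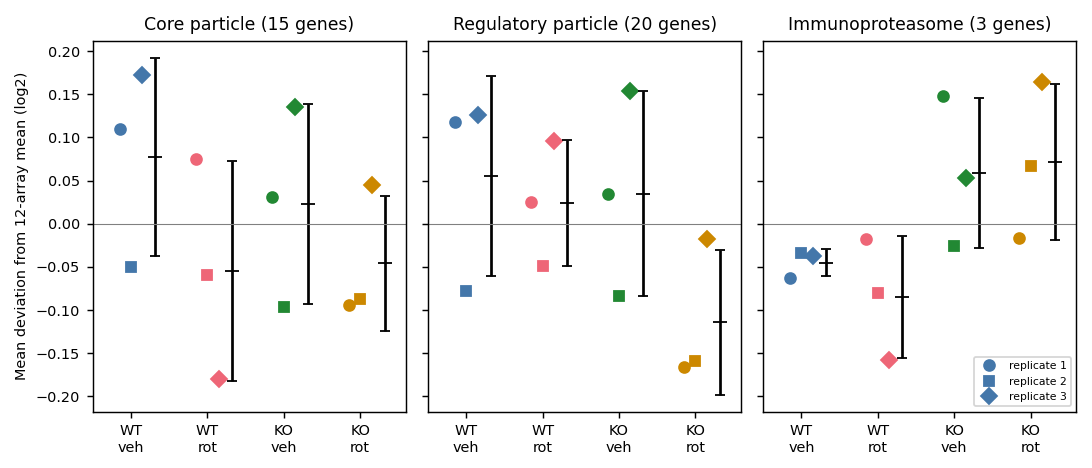
Mean deviation from the 12-array mean (log2) over the genes of the core, the regulatory particle and the immunoproteasome subunits on each array, with black bars for mean ± SD (n = 3 arrays). The wild-type rotenone array 3 is lowest in the core panel, at -0.18, and among the higher ones in the regulatory panel, at 0.10, and all 3 knockout rotenone arrays lie below 0 in the regulatory panel.

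In these means the vehicle and rotenone groups overlapped in the wild type for both particles. The core deviation was 0.08 ± 0.11 with vehicle and -0.05 ± 0.13 with rotenone in wild type, and 0.02 ± 0.12 with vehicle and -0.05 ± 0.08 with rotenone in knockout (SD, n = 3). The regulatory deviation was 0.06 ± 0.12, 0.02 ± 0.07, 0.03 ± 0.12 and -0.11 ± 0.08 in the same order. In knockout rotenone the regulatory values were -0.17, -0.16 and -0.02, against 0.03, -0.08 and 0.15 in knockout vehicle, so these groups overlapped too. By same-numbered pair the knockout regulatory difference was negative in each, at -0.20, -0.08 and -0.17, whereas in wild type it was -0.09, 0.03 and -0.03. Knockout rotenone array 1 held the lowest value for 7 of the 20 regulatory genes and array 2 for 4 of them.

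Genes that work with the proteasome were read from lists chosen with results of these data known. All 5 core assembly factors measured (Pomp and Psmg1 to Psmg4) had lower estimates with rotenone, with a median of -0.06, and none passed. Pomp, which guides maturation of the beta rings, was the lowest of them, at -0.22 (SE 0.12); like the core genes it was lowest on wild-type rotenone array 3, at 10.45, against 10.93 to 11.28 on the other arrays. Of 4 activators and inhibitors, 3 had lower estimates, with Psme1, a subunit of the interferon-induced activator, at -0.16 (SE 0.08). Proteins attached to the regulatory particle and ubiquitin receptors and shuttles had medians of 0.07 (5 genes) and -0.05 (7 genes), with none past the threshold.

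The list of transcriptional control, with 8 genes, had a median of 0.13, and 6 of 8 estimates were positive. None passed without the block, where 0.217% of all probe sets did. With the block 2 rose, where 2.46% of all probe sets passed in either direction (limma). Mafg, a small Maf partner of Nfe2l1 and Nfe2l2, measured 9.01, 8.86 and 8.95 with vehicle and 9.09, 9.44 and 9.14 with rotenone in wild type, and 8.96, 8.79 and 8.93 with vehicle and 9.14, 9.42 and 9.18 with rotenone in knockout. Rotenone arrays lay above vehicle arrays in both genotypes without overlap, and the difference was 0.32 (SE 0.08, adjusted p = 0.222, and 0.0457 with the block). Maff, another small Maf protein, gave 0.47 (SE 0.14, adjusted p = 0.357, and 0.0194 with the block), with 9.20 to 9.70 against 8.76 to 9.18 in wild type and 9.09 to 9.80 against 8.82 to 9.32 in knockout. Nfe2l1 itself was at 0.20 (SE 0.15) and Nfe2l2 at 0.23 (SE 0.20), and neither passed. The 5 member genes with TGACNNNGC in the promoter had a median rotenone difference of -0.13, with 4 of 5 lower, and the 27 matched genes without it had -0.09, with 23 of 27 lower.

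Markers of other cells were read beside the rotenone comparison. None of 13 leukocyte, 5 epithelial or 5 endothelial markers passed. The fibroblast marker Pdgfra was lower with the block only (-0.62, adjusted p = 0.619, and 0.0315 with the block; limma). The summed level of the 5 endothelial markers, as log2, was 8.88 to 9.04 in wild-type vehicle and 9.08 to 9.20 in wild-type rotenone. In knockout it was 8.99 to 9.11 with vehicle and 9.15 to 9.26 with rotenone, so the groups did not overlap within a genotype. Only 1 of the 5, Kdr, lay above the 40th percentile, and in knockout its mean was 8.33 with vehicle and 8.54 with rotenone. The knockout estimates of the 5 were split, 3 positive and 2 negative, with a median of 0.0008. The part of these markers in the rotenone differences was not tested.

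Between knockout and wild type with vehicle, estimates for the proteasome genes were small. The median was -0.03, with 27 of 39 genes lower, against 0.01 and 46.7% lower for all probe sets. Of the 17 further probe sets at or above the 40th percentile, 7 were lower in knockout. For 12 of these 17 the sign was opposite to that of their gene's brightest probe set. The lean to lower estimates was therefore not shared by the further probe sets. No member passed in limma, where 0.00442% of all probe sets did, nor with the block, where 0.0177% did. At an unadjusted p under 0.05 the 1 member was Psmb8, which was higher, against 1.04% of all probe sets; with the block it was again Psmb8, against 2.95%. The other extremes were Psma4 at -0.13 (SE 0.10) and Psma1 at 0.05 (SE 0.16) in the core, and Psmc3, an ATPase, at -0.07 (SE 0.10) and Psmd7 at 0.08 (SE 0.17) in the regulatory particle.

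With rotenone on both sides, regulatory genes mostly had lower estimates in knockout, and core genes were split in direction, which rested on the arrays numbered 3. Of the 20 regulatory genes, 19 were lower in knockout, with a median of -0.14, whereas 8 of 15 core genes were lower, with a median of -0.00; all probe sets had a median of 0.02, with 45.7% lower. No member passed, against 0.00442% of all probe sets without and 0.0398% with the block (limma). At an unadjusted p under 0.05, 2 ATPases were lower, Psmc2 and Psmc3, against 5.57% of all probe sets. With the block 7 members reached it, 17.9% against 13.0% of all probe sets: Psmc1, Psmc3, Psmc4, Psmd2, Psmd5 and Psmd7 lower and Psmb8 higher.

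All 6 ATPases, the motor that unfolds substrates, had lower estimates in knockout under rotenone, from -0.25 to -0.03. Psmc2 was at 11.64, 11.76 and 11.59 on the wild-type rotenone arrays and at 11.47, 11.51 and 11.47 on the knockout rotenone arrays. These did not overlap, and the difference was -0.18 (SE 0.08, adjusted p = 0.835; limma). Psmc3 was at 11.24, 11.31 and 11.34 against 11.01, 11.02 and 11.20, again without overlap, with a difference of -0.22 (SE 0.10, adjusted p = 0.835; limma). Psmc4 was at 10.58, 10.53 and 10.71 against 10.27, 10.21 and 10.69, where the third knockout array lay inside the wild-type range. Further bright probe sets gave -0.02 for Psmc2 and 0.01 for Psmc4 in this comparison, and 8 of the 17 further probe sets at or above the 40th percentile had the sign opposite to their gene's brightest one.

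Psmd5 had the lowest estimate of the regulatory particle in that comparison, -0.29 (1.22-fold lower, SE 0.25, adjusted p = 0.844, and 0.300 with the block; limma). Its levels were 10.08, 10.09 and 10.87 in wild-type rotenone and 9.77, 9.87 and 10.52 in knockout rotenone. They overlapped because array 3 stood high in each group, while every same-numbered pair was lower in knockout. The same held with vehicle, at 10.34, 10.21 and 10.70 against 10.31, 10.17 and 10.64, by 0.06 or less. The remaining extremes were Psma7 at -0.15 (SE 0.14), Psma8 at 0.14 (SE 0.10) and Psmd3 at 0.06 (SE 0.12).

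Across the 6 same-numbered pairs of the genotypes, 4 members were lower in knockout in each pair (Psmc1, Psmc2, Psmd5 and Psmd11), 10.3% against 3.99% of all probe sets, and 1 was higher in each, Psmb8, 2.56% against 3.04%. Knockout minus wild type on further bright Psmd11 probe sets was 0.00, -0.05 and -0.00 with vehicle. With rotenone it was 0.02, -0.09 and -0.14 on them. The further bright Psmc2 probe set gave 0.00 with vehicle and -0.02 with rotenone. The comparison under rotenone uses wild-type rotenone array 3. Without that array 17 of 20 regulatory genes were lower, with a median of -0.10, and 12 of 15 core genes, with a median of -0.05. Without all the arrays numbered 3 and with the block, 19 of 20 regulatory genes (median -0.16) and 13 of 15 core genes (median -0.12) were lower. The contrast between the particles was therefore smaller in both settings.

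Psmb8, the inducible chymotrypsin-like subunit, was the member with the highest estimate in knockout under both treatments. It measured 7.10, 7.06 and 7.37 with vehicle and 7.34, 7.10 and 7.25 with rotenone in wild type, and 7.32, 7.43 and 7.59 with vehicle and 7.41, 7.38 and 7.69 with rotenone in knockout. With vehicle the lowest knockout array lay just under the highest wild-type array, and with rotenone the genotypes did not overlap. Knockout minus wild type was 0.27 with vehicle (1.21-fold, SE 0.12, 95% interval 0.01 to 0.53, adjusted p = 1.00; limma) and 0.26 with rotenone (1.20-fold, SE 0.12, 95% interval -0.00 to 0.53, adjusted p = 0.835, and 0.308 with the block; limma). By pair it was 0.22, 0.37 and 0.22 with vehicle and 0.07, 0.28 and 0.44 with rotenone.

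Its neighbours in function gave smaller values. Psmb9, the inducible counterpart of Psmb6, ran from 6.65 to 6.94 on wild-type and from 6.75 to 7.05 on knockout arrays. Its differences were 0.05 (SE 0.11) with vehicle and 0.10 (SE 0.11) with rotenone. Psmb10, the inducible trypsin-like subunit, ran from 8.03 to 8.38 and from 8.14 to 8.56, with differences of -0.00 (SE 0.12) and 0.10 (SE 0.12). Both genotypes overlapped for Psmb9 and Psmb10. With rotenone, averaged over genotypes, the estimates were 0.05 for Psmb8, 0.02 for Psmb9 and -0.11 for Psmb10, none past the threshold.

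As a difference within each array, Psmb8 minus Psmb5, each as its deviation from its own 12-array mean, was -0.27 ± 0.09 with vehicle and -0.04 ± 0.17 with rotenone in wild type, and 0.08 ± 0.12 with vehicle and 0.22 ± 0.12 with rotenone in knockout (SD, n = 3). With vehicle the genotypes did not overlap in Psmb8 minus Psmb5. With rotenone they did, at 0.10 on knockout array 2 and 0.14 on wild-type array 3. In the same order of groups, Psmb9 minus Psmb6 was -0.11 ± 0.24, 0.03 ± 0.22, -0.01 ± 0.20 and 0.08 ± 0.13, with overlapping spreads. Psmb10 minus Psmb7 had group means between -0.02 and 0.02, with SDs of 0.16, 0.17, 0.31 and 0.28 in that order of groups. Of the 8 antigen processing genes measured, such as the peptide transporter Tap1 and the MHC class I genes H2-K1 and H2-D1, none passed between genotypes; medians were 0.03 with vehicle and 0.04 with rotenone. The interferon-responsive factor Irf1 was at -0.01 (SE 0.13) with vehicle and 0.04 (SE 0.13) with rotenone.

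The interaction, which is the rotenone effect in knockout minus that in wild type and the comparison closest to the stated aim, called no probe set: 0% of all probe sets passed without the block and 0% with it (limma). At an unadjusted p under 0.05 no member was found, against 0.362% of all probe sets, and with the block 1 was, Psmd7, which was lower, against 1.30%. Core genes had a median of 0.09, with 4 of 15 negative, and regulatory genes a median of -0.12, with 18 of 20 negative, against 0.00 and 49.4% for all probe sets. The extremes were Psma7 at -0.17 (SE 0.19) and Psma8 at 0.24 (SE 0.15) in the core and Psmd7 at -0.29 (SE 0.24) and Psmd3 at 0.07 (SE 0.17) in the regulatory particle. The median SE of the members was 0.168, and the widest 95% interval, that of Psmd5, ran from -1.01 to 0.51, which limits what 3 arrays a group can show. Without wild-type rotenone array 3 the core median became -0.01, with 9 of 15 negative, and the regulatory median -0.10, with 16 of 20.

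**Figure D4:**
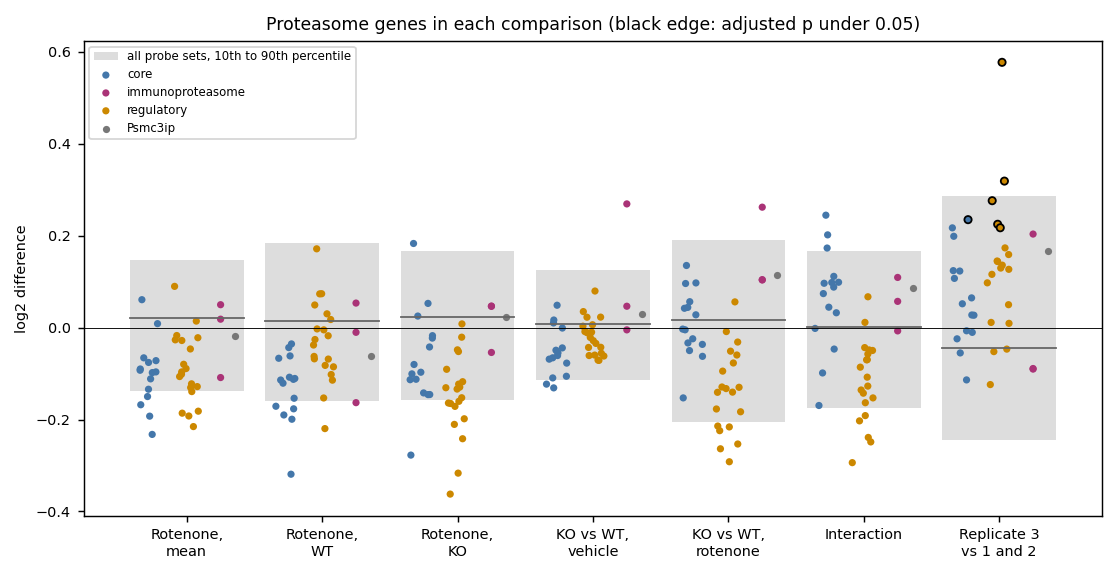
Log2 differences of the 39 genes in each comparison, coloured by particle, with a black edge where the adjusted p was under 0.05; grey boxes span the 10th to 90th percentile of all 22626 probe sets, with a line at their median. Points with a black edge appear only for replicate 3 against replicates 1 and 2, led by Psmd5 at 0.58, and most members lie inside the grey boxes elsewhere.

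Proteasome genes passed with all 12 arrays in the fit in 1 comparison, that of the arrays numbered 3 with those numbered 1 and 2, with genotype and treatment in the fit. Here 6 of 39 rose and none fell: 15.4% of the members against 11.7% of all probe sets called higher and 21.8% called in either direction. The regulatory genes had a median of 0.13, with 17 of 20 higher, and the core genes 0.05, with 10 of 15 higher, against -0.04 for all probe sets. Psmd5 rose most, by 0.58 (1.49-fold, SE 0.08, adjusted p = 7.94e-05; limma). Its arrays numbered 3 lay between 10.52 and 10.87 and all others between 9.77 and 10.34, without overlap. The count of 6 became 2 without knockout vehicle array 3, and 3 without wild-type vehicle array 2, knockout vehicle array 2 or any 1 of the knockout rotenone arrays.

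The lid subunits Psmd13 and Psmd3 rose by 0.32 (adjusted p = 0.0136) and 0.22 (adjusted p = 0.0387), the scaffold Psmd2 by 0.28 (0.0169), the ATPase Psmc4 by 0.22 (0.0391) and the catalytic subunit Psmb7 by 0.23 (0.0368; limma). A further Psmd13 probe set gave 0.31 (adjusted p = 0.0194). Psmd2 was at 11.79 to 12.22 on the arrays numbered 3 and at 11.43 to 11.81 on the others, which overlap only slightly, and without wild-type rotenone array 3 its adjusted p was 0.0895. Without knockout vehicle array 3 that of Psmd13 was 0.0788. The lowest estimates, Psmb3 at -0.11 (SE 0.10) and Psmd8, a lid subunit, at -0.12 (SE 0.08), did not pass, nor did Psmb8 at 0.20 (adjusted p = 0.0523).

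Some partner genes moved with the same arrays, in a comparison where 11.7% of all probe sets were called higher and 21.8% in either direction. None of the 4 activators and inhibitors passed. Uchl5, a deubiquitinase attached to the regulatory particle, rose by 1.04 (SE 0.10, adjusted p = 2.26e-06; limma), from 8.66 to 9.17 on arrays 1 and 2 to 9.79 to 10.08 on arrays 3. Of the 5 attached proteins 3 rose (Uchl5, the deubiquitinase Usp14 by 0.23 and the adaptor Ecpas by 0.38), and of the 7 ubiquitin receptors and shuttles 3 rose (Rad23b by 0.28, Ubqln2 by 0.47 and Ubqln4 by 0.33). The assembly chaperone Psmg1 rose by 0.36. Of the 8 control genes 3 fell: Nfe2l2, the oxidative stress factor, fell by 0.70 (SE 0.07, adjusted p = 3.97e-06; limma), Maff fell by 0.36 and Ngly1, the enzyme that activates Nfe2l1, fell by 0.30. In the antigen list H2-D1 rose by 0.54, H2-K1 by 0.29 and Irf1 by 0.24.

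Some markers of other cells moved with replicate 3 as well, where 11.7% of all probe sets were called higher. Of 13 leukocyte markers 8 rose, among them Lyz2 by 2.26 (adjusted p = 1.17e-11; limma), Cd68 by 0.53 and Cd14 by 0.53, and none fell. Of 5 epithelial markers the keratins Krt8, Krt18 and Krt19 rose, by 0.73, 1.03 and 1.04, whereas Epcam and Cdh1 did not pass. Of 5 endothelial markers none passed. Only 6 of the 13 leukocyte and 3 of the 5 epithelial markers lay above the 40th percentile of mean level. The summed leukocyte level, as log2, was 11.17 to 11.29 on the arrays numbered 3 and 10.54 to 10.785 on the others, and the summed epithelial level 10.02 to 10.68 against 9.34 to 9.63. Within the leukocyte sum, Lyz2 alone was at 9.29 to 9.46 on the arrays numbered 3 and at 6.99 to 7.28 on the others. Of 10 fibroblast markers 2 rose and 2 fell. Replicate 3 is balanced over the 4 groups, and the part of these markers in the proteasome differences was not tested.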

How the data were processed

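Per the submitters' processing notes, the authors deposited RMA log2 values for each probe set; its version and settings, and a genome build, are not given in these sources. RMA makes the arrays' distributions alike, so a shift common to most genes would not be seen, and it shrinks differences near background. Signal over background is unknown, since detection calls were not used, and 3 arrays a group limit the precision.

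Of 22690 probe sets, 64 array controls were left out. The fit of 4 group means used lmFit and eBayes of limma 3.58.1 (R 4.3.3) with two-sided tests, Benjamini-Hochberg adjustment over 22626 probe sets and a threshold of 0.05. The code was tested on simulated data. Replicate 3 was set against replicates 1 and 2 in an additive fit with the groups.

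Same-numbered arrays of different groups deviated together in all 18 pairs (r from 0.289 to 0.829), and 11 of 12 arrays had their best partner among their own number. The numbers were therefore taken to pair the arrays, from the data and not from the labels. The block was an alternative, as were leaving out each array or replicate number, a filter at the 40th percentile, other normalization, trend and robust moderation, the mean over a gene's probe sets, and a fit of the groups compared only.

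Named were the catalytic subunits and their counterparts, members and partner genes past the threshold, the extremes of each particle in each comparison, and members whose probe sets differed by over 0.5 (none did). Other genes were named after their values were seen. Members and lists were chosen with earlier results of these data known. Sequences and promoters are from RefSeq (GRCm38.p6).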

Additional observations from a re-analysis of the deposited data

Results flagged for a closer look

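For Psma8, an alpha subunit of germ cells, the genotypes differed in opposite directions under the treatments. Knockout minus wild type was negative in the 3 vehicle pairs (-0.16, -0.09 and -0.07) and positive in the 3 rotenone pairs (0.06, 0.11 and 0.23). The interaction was 0.24 (SE 0.15, adjusted p = 1.00; limma), so the difference did not pass its test. Psma8 lies at the 14.1st percentile of mean level, with 5.25 to 5.63 on all 12 arrays. The share of all probe sets with this genotype pattern is not given here. For a different pattern, in rotenone minus vehicle, all 3 wild-type pairs lie on the opposite side of 0 from all 3 knockout pairs. No member had that pattern, against 1.22% of all probe sets.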

How the results depend on the processing

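In the rotenone, genotype and interaction comparisons the count of proteasome genes past the threshold was 0 in every alternative fitted except 1. Without replicate 3 and with the replicate block, 2 genes passed as lower in the mean rotenone effect (Psmd1 at -0.31, adjusted p = 0.0353, and Psmd5 at -0.30, adjusted p = 0.0380; limma). That was against 4.66% of all probe sets, and the setting changed both the arrays and the block; leaving out 1 array without the block gave 0, and leaving out sets of arrays with the block gave 0 to 2. The replicate block by itself left each of these counts at 0. For replicate 3 against replicates 1 and 2 the count was 2 to 7 when 1 array was left out. It was 2 without knockout vehicle array 3 and 3 without wild-type vehicle array 2, knockout vehicle array 2 or any of the knockout rotenone arrays. Psmd5 passed in 17 of 17 settings, Psmd13 and Psmd2 in 16, Psmb7 in 8, Psmc4 in 7 and Psmd3 in 5. Without replicate 3 and with the block, the core median became -0.12 (13 of 15 lower) for knockout against wild type in rotenone and -0.04 (9 of 15 negative) for the interaction. No value that passed changed sign.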
